A study of Mus musculus with 2 samples.

Results

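The Fabp7, Neurod4 and Robo2 positive retinal precursors are cells of the postnatal mouse retina that were picked out of single-cell RNA sequencing data by their own transcripts. A cell belonged to the group when it held at least 1 UMI, a tag that counts 1 RNA molecule, for at least 3 of the 5 genes Fabp7, Angpt1, Neurod4, Robo2 and A830036E02Rik. It also had to hold fewer than 3 genes of each of a rod list (Nrl, Nr2e3, Pdc, Sag, Samd7, Prph2), a Müller glia list (Rlbp1, Slc1a3, Car14, Gpr37, Spon1, Cp) and a cone bipolar list (Scgn, Zfhx4, Cdh8, Lhx3, Vsx1, Tmem215). Of 10347 kept barcodes, each standing for a cell, 495 met this rule. In the control library they were 445 of 7583 kept barcodes (5.87%, 95% interval 5.35 to 6.42), and in the Alk1 ECKO library 50 of 2764 (1.81%, 1.35 to 2.38). The levels of these rule genes chose the cells, so they are given as a description.

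The retinas came from pups at postnatal day 6, and magnetic beads against CD31, a surface protein of endothelial cells, were used to enrich vessel cells before sequencing. Neurons and their precursors in these libraries are therefore cells that came through an endothelial enrichment, and their shares say nothing of how common they are in the tissue. The control carried floxed Alk1 alleles (Alk1f/f) without Cre, and the knockout library carried the same floxed alleles with Cdh5 CreERT2, a tamoxifen-inducible Cre driven by an endothelial promoter (Alk1 ECKO). The precursors are not the cells in which this Cre is driven, and without the mixed barcodes described below they held 5 UMIs of Cdh5 in control and 0 in Alk1 ECKO, and 1 UMI of Acvrl1, the gene of ALK1, in each library. The labels give neither the time or dose of tamoxifen nor the number or sex of the animals. There was 1 library per genotype, so no test between genotypes could be made. Each interval below is an exact 95% interval that covers counting error only, and each difference is one between these 2 libraries.

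In the first days after birth the mouse retina still makes rods, bipolar cells and Müller glia from dividing progenitors. A progenitor that leaves the cycle passes through a state in which basic helix-loop-helix factors such as Neurod1 and Neurod4 and the homeobox factor Otx2 are on, and from which photoreceptors and bipolar cells arise. Prdm1 holds such cells to a photoreceptor fate by repressing bipolar genes, and Crx and Nrl drive photoreceptor and rod genes. Fabp7 encodes the brain type fatty acid binding protein, known from radial glia and neural progenitors. Robo2 is a receptor for the guidance cue Slit, and Angpt1 is a secreted ligand of the endothelial receptor Tek (TIE2). A830036E02Rik is a noncoding transcript that GENCODE annotates as antisense to the keratin gene Krt12, and whether the counting used strand was not stated.

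The 5 rule genes lie on 4 chromosomes in mm10 (GENCODE vM21). Fabp7 spans chr10:57784881-57788450, Neurod4 chr10:130268152-130280240, Robo2 chr16:73891839-74411825, Angpt1 chr15:42424723-42676977 and A830036E02Rik chr11:99416956-99425497. Promoter windows from 250 bases before to 50 bases after the annotated start were read from RefSeq (GRCm38.p6) for the rule genes Fabp7, Neurod4 and A830036E02Rik, and for Crx, a known target of Otx2 that most precursors held. They were searched on both strands for CAGATG, an E-box bound by NeuroD factors, which reads on the opposite strand as CATCTG. The core bound by Otx2 and Crx was searched in the same way as TAATCC, which reads on the opposite strand as GGATTA. Capitals mark the matches. The sequences are printed 5′ to 3′ on the strand of the gene.
Fabp7, chr10:57784673-57784972, plus strand: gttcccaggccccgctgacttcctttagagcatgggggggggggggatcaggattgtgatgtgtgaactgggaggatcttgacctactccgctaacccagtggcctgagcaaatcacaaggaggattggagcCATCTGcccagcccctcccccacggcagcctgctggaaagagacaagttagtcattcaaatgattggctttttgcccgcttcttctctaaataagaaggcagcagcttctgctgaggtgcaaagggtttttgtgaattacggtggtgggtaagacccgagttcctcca
Neurod4, chr10:130280205-130280504, minus strand: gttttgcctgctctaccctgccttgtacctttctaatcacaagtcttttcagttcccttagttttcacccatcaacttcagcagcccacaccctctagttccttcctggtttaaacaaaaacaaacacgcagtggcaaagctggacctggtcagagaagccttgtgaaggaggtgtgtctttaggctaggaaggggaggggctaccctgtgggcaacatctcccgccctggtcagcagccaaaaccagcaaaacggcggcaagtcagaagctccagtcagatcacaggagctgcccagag
A830036E02Rik, chr11:99416993-99417292, plus strand: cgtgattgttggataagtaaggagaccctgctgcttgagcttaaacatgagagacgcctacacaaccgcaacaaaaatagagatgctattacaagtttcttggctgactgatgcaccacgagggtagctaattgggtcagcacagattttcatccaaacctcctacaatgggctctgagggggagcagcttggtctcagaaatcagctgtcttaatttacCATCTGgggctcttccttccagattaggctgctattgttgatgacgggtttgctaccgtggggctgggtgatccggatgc
Crx, chr7:15879906-15880205, minus strand: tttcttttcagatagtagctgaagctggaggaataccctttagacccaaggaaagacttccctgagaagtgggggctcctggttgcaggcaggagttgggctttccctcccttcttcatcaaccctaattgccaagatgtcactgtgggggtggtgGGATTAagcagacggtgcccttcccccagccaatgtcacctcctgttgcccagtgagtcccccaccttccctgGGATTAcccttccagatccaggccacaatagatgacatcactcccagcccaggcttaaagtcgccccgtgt
The windows of Fabp7 and A830036E02Rik held 1 CATCTG each, the Crx window held 2 GGATTA, and the Neurod4 window held neither. The windows of Robo2, Otx2 and Neurod1 were searched too and held neither. Of all 32851 promoter windows, 17.2% held the E-box and 7.06% the Otx2 and Crx core, so matches of this kind are common. They are a description of the letters, and binding was not measured.

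Depth was modest. The control precursors held 1846634 UMIs in all and a median of 3491 per cell, and the Alk1 ECKO precursors 442804 UMIs with a median of 3422. The libraries shared 20 barcode sequences among 14047 deposited. Among the precursors, 3 control and 2 Alk1 ECKO barcodes also held at least 3 genes of an endothelial, mural, microglial, erythroid or pigment epithelium list, and these are called mixed barcodes here. The largest, an Alk1 ECKO barcode with 240101 UMIs, held 10 of 10 endothelial, 9 of 9 mural and 4 of 5 erythroid markers but only 6 Fabp7 UMIs, 1 Neurod4 UMI and 1 Robo2 UMI. The other, with 16640 UMIs, held 10 of 10 microglia markers. Together these 2 barcodes carried 58.0% of the UMIs of the Alk1 ECKO precursors, whereas the 3 mixed control barcodes carried 3.97%.

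**Figure D1:**
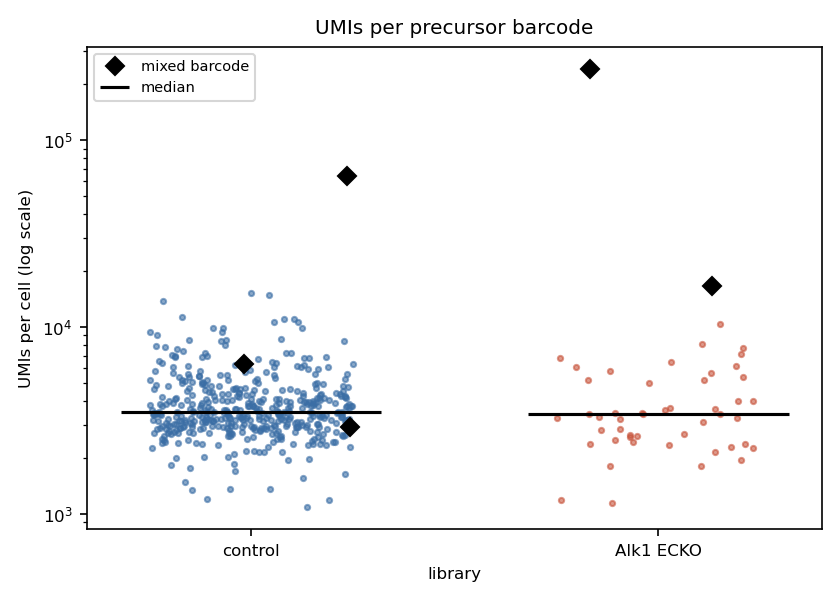
UMIs per precursor barcode on a log axis, by library. Each dot is a barcode, bars are medians (3491 in control, 3422 in Alk1 ECKO) and diamonds are the 5 mixed barcodes, of which the largest holds 240101 UMIs.

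Levels are therefore given without the 5 mixed barcodes unless stated, a choice made after the data had been seen. This leaves 442 control cells with 1773289 UMIs and 48 Alk1 ECKO cells with 186063 UMIs. A level is in CPM, the summed UMIs of a gene scaled by all gene UMIs of the precursors of a library. With mixed barcodes left out, summed mural markers were at 2.26 CPM in control and at 0 in Alk1 ECKO, microglial markers at 8.46 and 21.5 CPM, and erythroid markers at 0 and 10.8 CPM. Endothelial markers summed to 48.5 and 43.0 CPM.

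The label of the group fits its cells in part. Neurod4 was held by 444 of the 445 control precursors, Fabp7 by 432 and Robo2 by 417. Angpt1 was held by only 100 and A830036E02Rik by 97. The combination of Fabp7, Neurod4 and Robo2 with no other rule gene made up 273 control cells (61.3%, 56.6 to 65.9) and 36 Alk1 ECKO cells (72.0%, 57.5 to 83.8). All 5 genes were held by 19 control cells and 1 Alk1 ECKO cell. Angpt1, although it stands in the working label, marked a minority of the cells.

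Control levels were 4961 CPM for Fabp7 (4858 to 5066), 3111 CPM for Neurod4 (3029 to 3194), 532 CPM for Robo2 (498 to 567), 82.9 CPM for Angpt1 (70.0 to 97.4) and 72.8 CPM for A830036E02Rik (60.7 to 86.4). In Alk1 ECKO they were 6702 CPM for Fabp7 (6335 to 7085), 2338 CPM for Neurod4 (2123 to 2568), 371 CPM for Robo2 (288 to 469), 26.9 CPM for Angpt1 (8.72 to 62.7) and 69.9 CPM for A830036E02Rik (37.2 to 120). These genes chose the cells, so no difference between the libraries is read from their levels. Only 5 Angpt1 UMIs were found in the Alk1 ECKO precursors, against 147 in control. Their ratios also depend on the cells taken. The log2 ratio of Fabp7 was 0.43 without the mixed barcodes and -0.74 with all 495 cells. In the 135 control and 9 Alk1 ECKO cells with at least 4 rule genes, mixed barcodes left out, it was -0.42, and that of Neurod4 was 0.0876 where it was -0.41 in all cells without the mixed barcodes.

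Across the control library most barcodes with a rare rule gene also held Neurod4, which 4235 of 7583 kept control barcodes held. The rule did not choose these kept barcodes, but it sets how they split into precursors, set aside and elsewhere. The rule genes were also chosen with earlier results of these data known. Of 230 kept control barcodes with an A830036E02Rik UMI, 225 (97.8%) also held Neurod4, and 97 were precursors, 122 met the marker rule but were set aside by an exclusion list, and 11 lay elsewhere. Of 268 control barcodes with an Angpt1 UMI, 236 (88.1%) held Neurod4. Of these 268, 100 were precursors, 132 were set aside and 36 lay elsewhere, 5 of the last with at least 3 mural markers. The Alk1 ECKO library gave another picture for Angpt1. There 51 barcodes held an Angpt1 UMI, 4 of them precursors and 5 set aside, while 42 lay elsewhere, and 34 of those held at least 3 mural markers. Pericytes are a well known source of Angpt1.

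The edge of the rule was gradual. In control, 309 precursors held exactly 3 rule genes, 117 held 4 and 19 held 5, while 543 barcodes just outside held exactly 2. With mixed barcodes left out on both sides, 307 cells had exactly 3, 135 had 4 or 5 and 533 had 2. Neurod4 was at 2964 CPM in those with exactly 3 and at 1788 CPM in those with 2, and Fabp7 was at 4216 and 1949 CPM. Both are rule genes that help to set the number held, so this order follows in part from the sorting. Meis2, a homeobox factor that is not in the rule, was at 1221 CPM in control cells with 4 or 5 rule genes, 711 CPM in those with 3 and 222 CPM in those just outside. The exclusion lists set aside 889 control barcodes that held at least 3 rule genes, 817 of them by the rod list. The 106 unmixed barcodes with exactly 3 rod genes and none of the other exclusions had Fabp7 at 4141 CPM and Neurod4 at 2365 CPM, and Nrl at 631 CPM where the precursors with exactly 2 rod genes had 341 CPM.

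Beyond the rule, most of the cells shared genes of photoreceptor and bipolar precursors. Shares of cells with a UMI were taken after thinning each cell to 2000 UMIs, which left 426 control and 43 Alk1 ECKO precursors and left out 16 and 5 shallower cells. Otx2 was held by 92.0% of control (89.0 to 94.4) and 83.7% of Alk1 ECKO precursors (69.3 to 93.2), while 1.71% and 0.323% of endothelial cells held it. Before thinning, the median UMIs of those endothelial cells were 14749 and 13300 where the precursors had 3488 and 3346. Their shares therefore do not give the level that free RNA can reach in a precursor. Neurod1 was held by 92.5% and 88.4% of precursors, against 1.71% and 0.431% of endothelial cells. At least 3 of 10 photoreceptor precursor markers, counted without thinning, were held by 430 of 445 control precursors (96.6%, 94.5 to 98.1) and 43 of 50 in Alk1 ECKO (86.0%, 73.3 to 94.2). These markers were fixed with results of these data known.

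Other photoreceptor genes were held by fewer cells. Nrl, the switch for rod fate, was held by 26.3% of control and 20.9% of Alk1 ECKO precursors, but the rule limits it. Crx was held by 54.7% and 37.2%, Prdm1 by 47.2% and 27.9%, and Gngt2, a cone transducin subunit, by 66.4% and 46.5%. For Gngt2 the endothelial cells stood at 11.1% and 12.8%, and for Prdm1 at 9.83% and 7.44%. Prdm1 is itself known in endothelial cells.

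Progenitor and Notch genes were still on in many of them. Hes5, a direct target of Notch signalling, was held by 52.6% of control and 62.8% of Alk1 ECKO precursors, Notch1 by 31.0% and 23.3%, and Rax, an eye field homeobox factor, by 62.7% and 41.9%. Hes6, which marks cells entering neurogenesis, was held by 58.0% and 55.8%. Few of the cells held G2/M genes. After thinning, 8 of 426 control precursors (1.88%, 0.814 to 3.67) and 0 of 43 in Alk1 ECKO held at least 3 G2/M genes. The exact interval of the latter reaches 8.22%, and a floor of 3 counts is 6.98%. In control the share was 17.5% of 439 Müller glia, 7.20% of 236 neurogenic cells, 0.751% of 2797 rods and 0.331% of 302 cone bipolar cells.

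**Figure D2:**
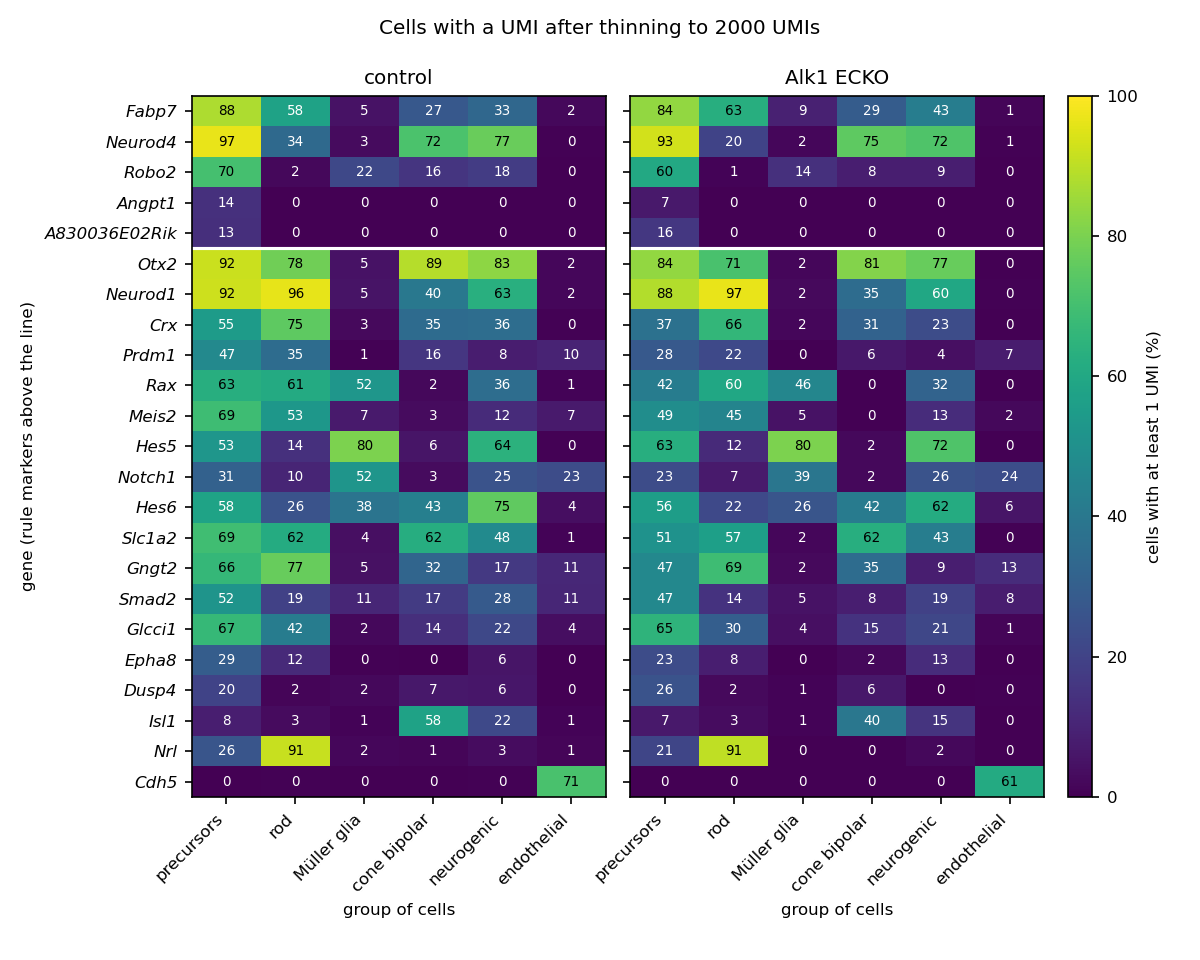
Percent of cells with at least 1 UMI for each gene after thinning to 2000 UMIs, for the precursors and the comparison groups (columns) in control (left) and Alk1 ECKO (right). Rule genes stand above the white line. Otx2 was held by 92.0% and Nrl by 26.3% of control precursors, and Cdh5, an endothelial gene, shows the endothelial column.

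The precursors were set beside rods, Müller glia, cone bipolar and neurogenic cells, each picked by at least 3 markers of its own, with fewer than 3 rule genes and mixed barcodes left out. Because both sides were chosen by transcripts, these values are a description. Otx2 was held by 78.3% of control rods, 88.7% of cone bipolar cells and 83.1% of neurogenic cells, but by 4.78% of Müller glia. Neurod1 was held by 96.5% of rods and 40.1% of cone bipolar cells. Meis2 was held by 68.8% of control precursors and 53.0% of rods, but by 2.98% of cone bipolar and 12.3% of neurogenic cells. Hes5 had another order, with 80.2% of Müller glia, 64.4% of neurogenic cells, 52.6% of precursors, 14.0% of rods and 5.63% of cone bipolar cells. The precursors were nearer to rods in Neurod1 and Meis2 and nearer to neurogenic cells in Hes5.

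Among 3563 genes outside the rule with at least 50 CPM in the precursors, the 20 with the highest level relative to the highest of the 4 groups were taken. Those led by many cells were Dusp4, a phosphatase of MAP kinases, Epha8, an ephrin receptor, Ece1, the endothelin converting enzyme, and Smad2, a TGF-beta signal transducer. Dusp4 was at 120 CPM in control cells and at 113 CPM in Alk1 ECKO precursors, against 38.5 and 29.9 CPM in cone bipolar cells. Epha8 was at 168 and 161 CPM, against 65.7 and 37.0 CPM in rods. Smad2 was at 358 and 285 CPM, against 166 and 95.1 CPM in neurogenic cells. Ece1 was at 177 and 134 CPM, against 54.7 and 53.7 CPM in rods, but at 230 CPM in control endothelial cells. For each of these genes the precursors were above the named group in both libraries.

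Others of the 20 were Lcorl, Glcci1, Gap43, Vipr2, Abca4, App, Meis2, Rreb1, Cenpj, Insm2, Fmnl2, Enc1, Rbm24 and Irgq. Glcci1 was at 643 and 376 CPM, against 286 and 212 CPM in rods. Abca4, a retinoid transporter of photoreceptors, was at 183 and 349 CPM, against 84.7 and 190 CPM in neurogenic cells. Vipr2, a receptor for vasoactive intestinal peptide, was at 146 and 140 CPM, against 90.0 and 51.9 CPM in neurogenic cells. Cartpt and Pmch, which encode neuropeptides, entered through single cells, since 294 of 299 control Cartpt UMIs lay in 1 cell and all 24 Alk1 ECKO Pmch UMIs lay in 1 cell. With all precursors and with mixed barcodes kept in the comparison groups, 8 of the 20 genes were found again.

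The precursors were not uniform. Clustering of all 495 on genes outside the rule gave 4 sub-clusters, whose leading genes are a description since they formed the clusters. They are called by number. Sub-cluster 1 (145 control and 19 Alk1 ECKO cells) was led by Dusp4, Pla2g7, Meis2, Rreb1 and Glcci1. Sub-cluster 2 (154 and 7 cells) was led by Samd11, Nt5e, Clstn1, Ccdc175 and Baiap2. Sub-cluster 3 (103 and 21 cells) was led by Hes1, Hist1h3c, Vim, Mybl1 and Mt1. Sub-cluster 4 (43 and 3 cells) was led by Cartpt, Isl1, Crabp1, Trnp1 and Pcp4, of which Cartpt came from 1 cell.

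Sub-cluster 1 carried the highest levels of the rule genes in control, with Fabp7 at 6980 CPM, Neurod4 at 3934 CPM, Robo2 at 762 CPM and Angpt1 at 134 CPM. Hes5 was at 1545 CPM in it. Sub-cluster 2 leaned to photoreceptor genes. Nrl was at 515 CPM there against 108 CPM in sub-cluster 1, and Gngt2 at 2619 against 1094 CPM, Rom1, a disc rim protein of photoreceptors, at 652 against 303 CPM, and Prdm1 at 582 against 419 CPM. Hes5 was lower in sub-cluster 2, at 547 CPM. Among its leading genes, Rpgrip1, Prcd and Rbp3 are known photoreceptor genes.

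Sub-cluster 3 carried progenitor and glial genes beside the rule genes. Hes5 was at 2293 CPM in control, Vim, an intermediate filament of progenitors and Müller glia, at 286 CPM, and Sox9 at 166 CPM, while Nrl was at 20.01 CPM and Prdm1 at 136 CPM. Hes1 came from 13 cells and Hist1h3c, a histone gene of S phase, from 3 cells, so these leading genes rest on few cells. Sub-cluster 4 leaned to bipolar genes. Isl1, a LIM homeobox factor of ON bipolar, amacrine and ganglion cells, was at 1226 CPM. Grm6, the glutamate receptor of ON bipolar cells, was at 146 CPM, and Prdm1 at 44.6 CPM. Fabp7 was at 2163 CPM there, below its level in each of the other 3 sub-clusters.

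**Figure D3:**
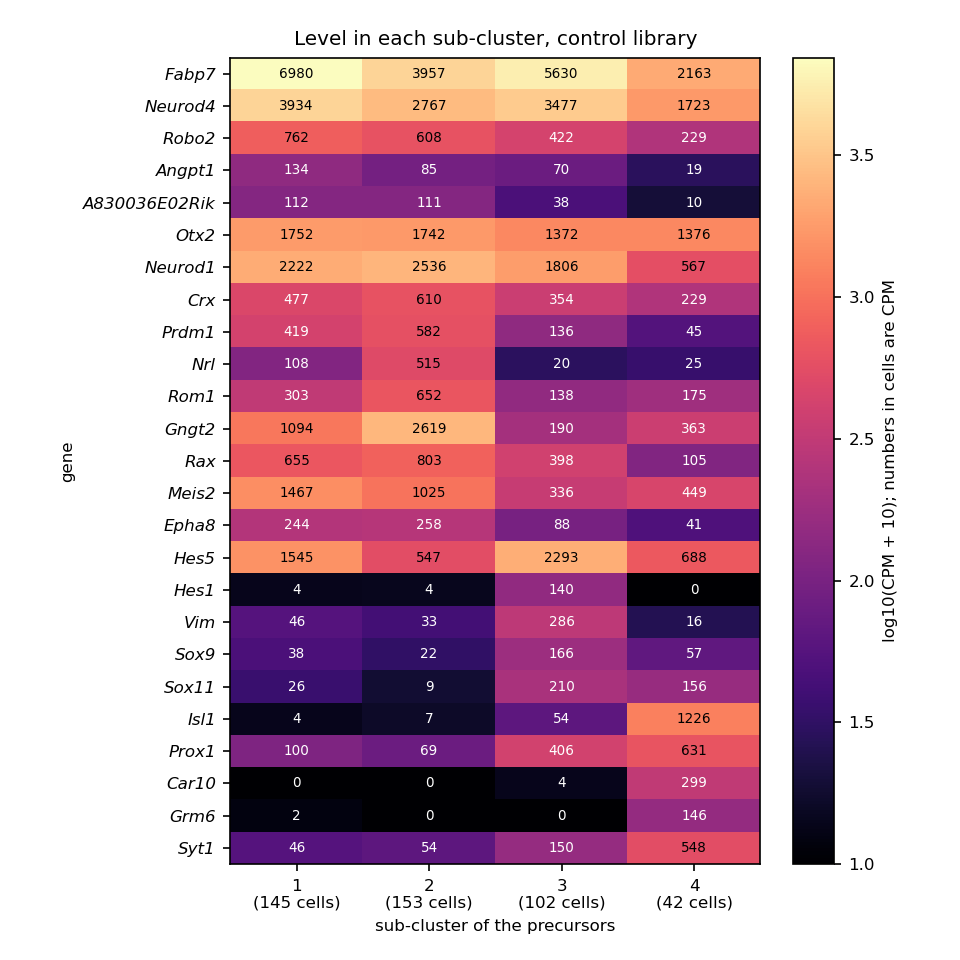
Control levels of selected genes in the 4 sub-clusters of precursors, mixed barcodes left out; colour is log10(CPM + 10) and printed numbers are CPM. Nrl (515 CPM) stands out in sub-cluster 2, Hes5 (2293 CPM) in 3, and Isl1 (1226 CPM) in 4.

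Angpt1 and A830036E02Rik overlapped in a minority of their cells. Of 442 control precursors, 99 held Angpt1, 96 held A830036E02Rik and 24 held both. A830036E02Rik was held by 24.2% of the cells with Angpt1 and 21.0% of those without. Both are rule genes, and the rule shapes how they overlap within the cells it chose, so the shares are a description only. These shares are not thinned, and cells within 1 library are not replicates.

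Between the libraries, the precursors of Alk1 ECKO had higher levels of glycolytic and hypoxia-responsive genes and lower levels of several photoreceptor precursor genes. A gene counts as measured with at least 30 UMIs over both libraries, and as higher or lower from 1.5-fold. Over 7367 measured genes, 9.84% were higher and 28.5% lower in Alk1 ECKO, with a median log2 ratio of -0.17. Relative to that median, 16.1% were higher and 21.3% lower. Counts for each list are to be read against these shares. With all 495 cells, 16.4% of 8037 measured genes were higher and 46.4% lower (28.3% and 26.9% relative to their median), and the 12 genes with the highest ratios, Adm, Ccl4, Cxcl2, Kcne3, Spp1, Igfbp3, S100a6, Lyz2, Bgn, Apln, Lgals1 and Hmox1, had all their Alk1 ECKO UMIs but 3 of S100a6 in the 2 mixed barcodes.

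Of 27 measured hypoxia and glycolysis genes, 20 were higher and 2 lower, with a median log2 ratio of 0.998. With the mixed barcodes kept, 16 of 31 were higher and 7 lower (median 0.61). In the cells with at least 4 rule genes, mixed barcodes left out, 8 of 21 were higher and 2 lower (median 0.37). Slc16a3, the lactate exporter MCT4, was at 18.0 CPM (12.3 to 25.5) in control cells and 134 CPM (87.0 to 198) in Alk1 ECKO, a log2 ratio of 2.90 (2.08 to 3.70). Bnip3, a mitophagy receptor, was at 123 and 532 CPM, with a log2 ratio of 2.11 (1.76 to 2.46). The UMIs were spread over cells, with Slc16a3 in 27 of 442 control and 15 of 48 Alk1 ECKO cells and Bnip3 in 127 and 30.

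The glycolytic enzymes measured, Hk1, Gpi1, Pfkl, Pfkp, Aldoa, Tpi1, Gapdh, Pgk1, Pgam1, Eno1 and Pkm, were all higher, as were the lactate dehydrogenases Ldha and Ldhb. Hk1 was found in few cells, and after thinning 3.05% of control and 2.33% of Alk1 ECKO precursors held it. Pgk1 was at 248 CPM (225 to 272) in control cells and 726 CPM (608 to 859) in those of Alk1 ECKO, Aldoa at 480 and 1134 CPM, Gapdh at 850 and 1795 CPM, and Pkm at 832 and 1688 CPM. Ldha, which makes lactate, was at 1092 CPM (1044 to 1142) and 1854 CPM (1664 to 2061). None of these intervals overlap between the libraries. The glucose transporter Slc2a1 was at 30.4 and 75.2 CPM, with a log2 ratio of 1.30 (0.34 to 2.17).

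Not all members of the list were higher. Kdm3a, a histone demethylase, was lower, at 120 and 48.4 CPM (log2 ratio -1.31, -2.46 to -0.36), and P4ha1 had a log2 ratio of -0.78 (-2.02 to 0.24). Hif1a, the hypoxia-inducible transcription factor itself, was at 509 and 403 CPM (-0.34, -0.70 to 0.01), and Vegfa at 68.2 and 69.9 CPM (0.03, -0.92 to 0.86). The intervals of Hif1a, Vegfa, Mxi1, Ndrg1 and Ddit4 include 0.

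**Figure D4:**
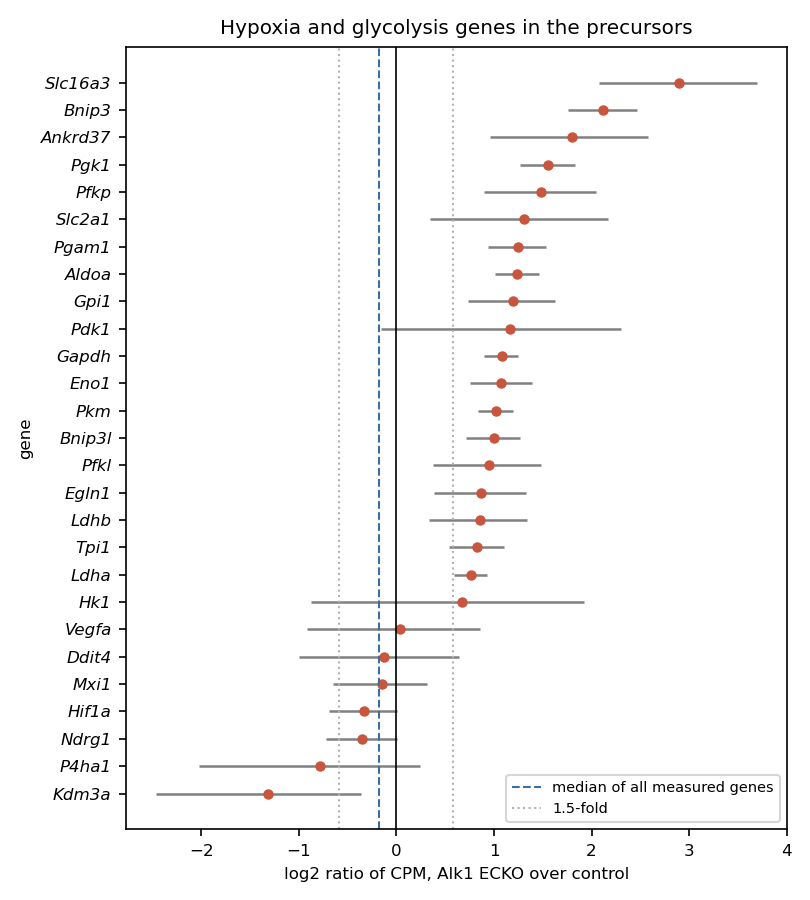
Log2 ratio of CPM, Alk1 ECKO over control, of the 27 measured hypoxia and glycolysis genes in the precursors without mixed barcodes. Points are ratios, bars exact 95% counting intervals, the dashed line the median of all measured genes (-0.17) and dotted lines 1.5-fold; 20 genes lie at or beyond 1.5-fold higher, led by Slc16a3 (2.90).

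The median of this list lay above 0 in each of the 4 sub-clusters, at 0.71, 0.66, 1.02 and 0.80 for sub-clusters 1 to 4, with 19, 6, 20 and 3 Alk1 ECKO cells. It was also above 0 in the comparison groups, at 0.48 in rods, 0.48 in Müller glia, 0.72 in cone bipolar and 0.83 in neurogenic cells. Whether the size of the difference is another in the precursors than in these groups was not tested. The share of mitochondrial UMIs, a sign of RNA quality, had a median of 4.18% in control and 3.58% in Alk1 ECKO precursors, and its part in the result was not tested.

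Among all genes with an interval beyond 1.5-fold, 34 were higher and 45 lower of 5574 eligible genes. The 12 with the highest ratios were Mt1, Slc16a3, Igfbp2, Fam162a, Ndufa4l2, Bnip3, Dll3, Ankrd37, Cd9, Selenom, Prxl2b and Ptn. Mt1, a metallothionein that binds zinc and copper, was at 16.9 CPM (11.4 to 24.2) in control cells and 150 CPM (100 to 218) in Alk1 ECKO. It was in 20 control and 11 Alk1 ECKO cells, and 24 cells of sub-cluster 3 held it. Igfbp2, which binds insulin-like growth factors, was at 58.1 and 328 CPM with a log2 ratio of 2.497 (2.01 to 2.97). Fam162a was at 111 and 623 CPM and Ndufa4l2 at 86.8 and 478 CPM, both known as hypoxia-induced mitochondrial proteins. Dll3, a Notch ligand that acts within the cell, was at 37.8 and 134 CPM with a log2 ratio of 1.83 (1.11 to 2.51), found in 56 control and 16 Alk1 ECKO cells. Selenom rested on few UMIs in the cells with at least 4 rule genes. Its log2 ratio there was -1.05 with the mixed control barcode, from 35 control UMIs and 1 in Alk1 ECKO, and 1.10 (-4.39 to 4.06) without it, from 7 and 1.

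The 12 genes named as lowest had no UMI in the Alk1 ECKO precursors. Their ratios therefore tie, and their order is by name and not by size. They were Atg10, Calb2, Cartpt, Gnpda1, Gria2, Kctd2, Otud6b, Phlpp1, Rapgef2, Ssh2, Tnk2 and Unc119b. Against a floor of 3 counts per library, Otud6b, a deubiquitinase found with 98 UMIs in 84 control cells, gave a log2 ratio of -1.78 as a bound. Phlpp1, a phosphatase of AKT, gave -1.33 and Ssh2, a cofilin phosphatase, -1.31. Atg10, Gnpda1 and Rapgef2 gave only -0.94. Ddit3, which had 4 UMIs in Alk1 ECKO, lay below these bounds, with a log2 ratio of -2.39 (-4.28 to -1.01). Calb2 and Gria2 rested on 10 and 18 control cells, and Cartpt on 6. With only 186063 UMIs behind the Alk1 ECKO value, genes at this level sit near the limit of detection.

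Several photoreceptor precursor genes were lower in Alk1 ECKO. Of 7 measured markers 0 were higher and 4 lower, with a median log2 ratio of -0.63. With the mixed barcodes kept all 7 were lower (median -1.75), but those barcodes added mostly UMIs of other genes. All 10 markers together held 741 of 442804 Alk1 ECKO UMIs with them and 710 of 186063 without. Prdm1 was at 315 CPM (290 to 342) in control cells and 140 CPM (91.3 to 205) in Alk1 ECKO, a log2 ratio of -1.17 (-1.80 to -0.61). Crx was at 433 CPM (403 to 465) and 253 CPM (186 to 336), and Rax at 524 and 339 CPM. Otx2 was at 1576 CPM (1518 to 1635) and 1064 CPM (921 to 1223), a log2 ratio of -0.57 that misses 1.5-fold. Neurod1 was at 1894 and 1844 CPM, with a log2 ratio of -0.04 (-0.20 to 0.12). The 6 rod genes of the exclusion list are capped by the rule and are given as a description only, with Nrl at 174 and 86.0 CPM and Nr2e3, a nuclear receptor of rods, at 64.3 CPM and 1 UMI. In the 135 control and 9 Alk1 ECKO cells with at least 4 rule genes, mixed barcodes left out, Crx was at 512 and 517 CPM. There Neurod1 was at 2410 and 3100 CPM, Otx2 at 1582 and 1064 CPM, and Rax at 614 and 395 CPM.

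Progenitor and glial genes leaned the other way. Of 10 measured progenitor markers 6 were higher and 2 lower, with a median log2 ratio of 0.62, and of 9 Müller glia markers 5 were higher and 0 lower, with a median of 0.71. With the mixed barcodes kept, the progenitor median turned to -0.44, with 5 higher and 4 lower of 12, and the Müller glia median was 0.19. In those sums the log2 ratio of Hes5 was -0.60. Without them Hes5 was at 1345 CPM (1292 to 1400) and 2021 CPM (1822 to 2236). Sox9 was at 73.3 and 134 CPM. Dbi, a binder of acyl-CoA esters, was at 146 and 408 CPM with a log2 ratio of 1.48 (1.09 to 1.86). Rax and Notch1 were lower, with log2 ratios of -0.63 and -0.59. In the 135 control and 9 Alk1 ECKO cells with at least 4 rule genes, mixed barcodes left out, Hes5 was at 1288 and 1337 CPM. The Müller glia list had medians above 0 in the comparison groups too, at 0.37 in rods, 0.38 in Müller glia, 0.32 in cone bipolar and 0.21 in neurogenic cells.

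The sub-clusters were unevenly filled in the libraries. Sub-cluster 3 held 23.1% of control precursors (19.3 to 27.4) and 42.0% in Alk1 ECKO (28.2 to 56.8), and sub-cluster 2 held 34.6% (30.2 to 39.2) and 14.0% (5.82 to 26.7). Leading genes of sub-cluster 3 such as Mt1 and Ndufa4l2 differed between the libraries, so these shares are not a comparison of cell numbers. Within sub-clusters 1 to 4, progenitor markers had median log2 ratios of -0.10, 0.0004497, 0.33 and 0.74, over 4, 4, 9 and 3 genes. Photoreceptor precursor markers had medians of -0.36, -0.29, -0.70 and -0.12, over 6, 6, 6 and 4 genes. Müller glia markers had medians of 0.21, -0.27, 0.18 and 0.58, over 4, 4, 9 and 3 genes. Sub-clusters 2 and 4 rest on 6 and 3 Alk1 ECKO cells here. The photoreceptor precursor median was below 0 in each comparison group as well, at -0.77 in Müller glia, -0.61 in neurogenic cells, -0.47 in cone bipolar cells and -0.21 in rods.

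Of 11 measured bipolar markers 1 was higher and 4 lower (median -0.46), shares near those over all genes. Isl1 was at 235 and 118 CPM, with a log2 ratio of -0.99 (-1.68 to -0.37), while Lhx4, a LIM homeobox factor, was at 252 and 280 CPM. Of 8 amacrine markers 1 was higher and 5 lower (median -0.70), with Meis2 at 853 CPM (811 to 897) and 511 CPM (413 to 624). Meis2 was at 1221 and 1094 CPM in the cells with at least 4 rule genes. Of 35 retinal transcription factors 4 were higher and 15 lower (median -0.46). Among them, Casz1, a zinc finger factor of the temporal order of progenitors, was at 386 and 231 CPM and Insm1 at 175 and 86.0 CPM, while Sox4 was at 2522 and 2945 CPM.

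Proneural, Notch and Wnt lists had medians near 0 without the mixed barcodes, and of -0.61, -0.74 and -0.73 with them. Of 9 proneural genes 2 were higher and 1 lower (median 0.18), and of 17 Notch genes 3 were higher and 5 lower (median 0.04). In the latter Dll3, Hes5 and Hes1 were higher, and Mib1, the ligase that lets Notch ligands signal, was at 138 and 59.1 CPM with a log2 ratio of -1.23 (-2.25 to -0.36). Wnt genes counted 2 higher and 3 lower of 11 (median 0.08).

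Guidance and adhesion genes were counted next. Of 7 Roundabout, Slit and netrin genes 0 were higher and 4 lower (median -0.67), with Dcc, a netrin receptor, at 162 and 86.0 CPM (log2 ratio -0.92, -1.74 to -0.19) beside the rule gene Robo2. Of 11 adhesion genes 0 were higher and 7 lower (median -0.70), with Cadm3 at 166 and 80.6 CPM and Cadm2 at 271 and 161 CPM, but in the cells with at least 4 rule genes, mixed barcodes left out, the median was 0.19 over 4 genes. Adhesion medians were below 0 in the comparison groups too, at -0.50 in rods, -0.24 in Müller glia, -0.39 in cone bipolar and -0.37 in neurogenic cells. Of 14 semaphorin, plexin and ephrin genes 1 was higher and 5 lower (median -0.33), near the shares over all genes. Epha8 was at 168 and 161 CPM.

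**Figure D5:**
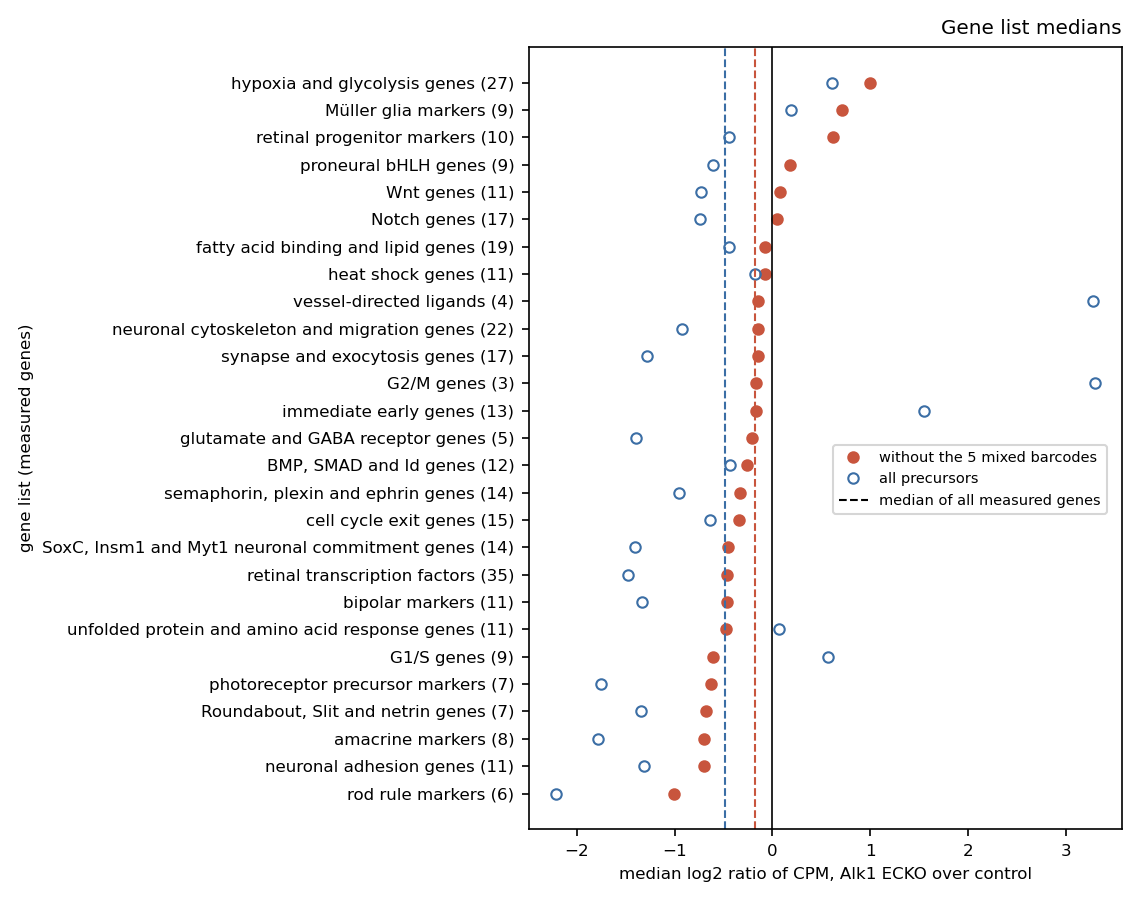
Median log2 ratio of CPM, Alk1 ECKO over control, per gene list, with the number of measured genes in brackets. Filled points leave out the 5 mixed barcodes, open points use all 495 precursors, and dashed lines are the medians of all measured genes (-0.17 and -0.49). Hypoxia and glycolysis genes are highest without mixed barcodes (0.998), and lists such as vessel-directed ligands move far with them.

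Of the ligands that act on vessels only 4 were measured, 0 higher and 1 lower (median -0.14), where 6 of 10 were higher with the mixed barcodes kept (median 3.28). The lower one was the rule gene Angpt1, whose level is a description only, and Vegfa, Vegfb and Tgfb2 had intervals that include 0. Of 12 BMP, SMAD and Id genes, the pathway of ALK1 in vessels, 1 was higher and 2 lower (median -0.26). Smad4, the shared partner of receptor SMADs, was at 242 and 91.4 CPM with a log2 ratio of -1.41 (-2.20 to -0.71). Id1, a BMP target, was at 31.0 and 86.0 CPM (1.47, 0.57 to 2.30), found in few cells.

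Lipid genes counted 3 higher and 5 lower of 19 (median -0.08). Fabp5, a relative of Fabp7, was at 642 and 860 CPM and Apoe at 588 and 844 CPM, with log2 ratios of 0.42 and 0.52, both below 1.5-fold. Cytoskeletal genes of young neurons counted 1 higher and 7 lower of 22 (median -0.15). Stmn1 was at 2979 and 3348 CPM and Tuba1a at 2364 and 2945 CPM, while Stmn2, a gene of older neurites, was at 85.1 CPM and 2 UMIs. Synaptic genes counted 1 higher and 6 lower of 17 (median -0.15), glutamate and GABA receptor genes 0 and 2 of 5 (median -0.21), and SoxC, Insm1 and Myt1 commitment genes 0 and 6 of 14 (median -0.46).

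The sums of cell cycle genes turned on the mixed barcodes, with which the G1/S and G2/M medians were 0.57 and 3.30. Without them, of 9 measured G1/S genes 0 were higher and 5 lower (median -0.61), of 15 cycle exit genes 0 and 3 (median -0.34), and of 3 G2/M genes 0 and 0 (median -0.16, beside -0.17 over all genes). Cdkn1b, a cycle inhibitor, was at 305 and 285 CPM. Stress genes were mixed. Of 11 unfolded protein and amino acid response genes 1 was higher and 4 lower (median -0.47, or 0.07 with the mixed barcodes), with Atf4 at 471 CPM (440 to 504) and 210 CPM (149 to 286) and Ddit3, its target CHOP, at 113 CPM and 21.5 CPM from 4 UMIs. Atf4 had log2 ratios of -1.17 in the precursors, -0.17 in rods, -0.77 in Müller glia, -0.39 in cone bipolar and -0.89 in neurogenic cells. Immediate early genes, which cell dissociation is known to induce, counted 1 higher and 3 lower of 13 (median -0.17, or 1.55 with the mixed barcodes), with Jun at 478 and 172 CPM, and heat shock genes 1 and 1 of 11 (median -0.08).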

How the data were processed

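Per the labels' protocols, the 1 control and 1 Alk1 ECKO library (postnatal day 6) were made with 10x Chromium 3' v3.1 chemistry. The authors deposited raw UMI counts per gene and barcode for 32285 genes. The file headers name Cell Ranger 5.0.1, while mm10, FastQC 0.11.9 and Cell Ranger 6.1.1 stand in the submitters' processing notes. Whether intronic reads were counted, and which filter chose the barcodes, is not given in the sources used here.

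Kept barcodes had 1000 or more UMIs, 500 or more genes and 1 to 10% mitochondrial UMIs, 7583 of 8739 in control and 2764 of 5308 in Alk1 ECKO. The lower mitochondrial limit set aside 326 and 1473 barcodes, of which 7 and 1 met the marker rule. Scrublet (scanpy 1.11.5) called 0 of 7909 and 2 of 4237 by its automatic threshold, so no doublets were removed, and removal by rank was an alternative. UMIs were summed per library and divided by all gene UMIs of the cells (CPM). The 95% intervals are Clopper-Pearson for shares, exact Poisson for sums and exact binomial, conditional on the total, for ratios. A gene at 0 was set against a floor of 3 counts. UMIs correct for PCR copies, but intervals and floors cover counting error only. For the comparison without mixed barcodes 7367 genes were simulated with counting error only, some of them changed. Intervals held the true ratio for 96.3% of the genes left unchanged. No test was made, since each genotype had 1 library.

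The precursors were clustered on 2000 variable genes, 20 components and 15 neighbours with Leiden resolution 0.5 (leidenalg 0.10.2). A total of 41 gene lists with 726 entries were used, 725 of them in the files. The cells and lists were chosen with earlier results of these data known, the pattern in hypoxia genes among them, which is not independent support here. Genes were named by rule: the rule and exclusion genes; the 12 highest and 12 lowest ratios among genes with at least 50 UMIs, 20 CPM in 1 library and an interval beyond 1.5-fold; the 20 genes highest over the comparison groups, with 10 CPM added; in each list the extremes, the 4 highest levels and genes its account turns on; and the 5 leading genes of each sub-cluster. Grm6, Rpgrip1, Prcd, Rbp3 and genes shown by sub-cluster were chosen after their values were seen. The comparison of groups left out barcodes with at least 3 genes of another tissue, chosen after 331 of 380 Alk1 ECKO barcodes of the neurogenic group proved to hold such genes. Promoters came from RefSeq; that of Angpt1 was not used here. Some genes are not reported here.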

Additional observations from a re-analysis of the deposited data

How the results depend on the processing

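Each genotype had 1 library of cells, so replicates could not be left out. No paired analysis was possible because there was 1 library per genotype. Values in this part start from all 495 cells: shares of 5.87% and 1.81%, 1315 genes higher and 3726 lower, a median log2 ratio of -0.49 and 6 of 21 pathway lists with a median above 0. The shares were 1.79% and 0.326% with at least 4 rule genes, 3.53% in control with fewer than 2 exclusion genes, 1.204% in Alk1 ECKO with no lower mitochondrial limit, and 5.24% and 1.29% with the rule applied after thinning. Genes higher and lower were 697 and 957 with at least 4 rule genes, 766 and 1873 after thinning, 2278 and 2164 relative to the median, 750 and 2181 without cells holding 3 G2/M genes, 622 and 1891 from 100 UMIs, and 725 and 2098 without mixed barcodes. With no minimum 2919 genes were higher, and without mixed barcodes 2207 were lower by mean CPM per cell. The median of all genes was 0 with at least 4 rule genes, -0.16 after thinning, -0.18 by mean CPM per cell, -0.22 without G2/M cells, -0.29 with no minimum, -0.17 without mixed barcodes and -0.18 with both of the last. By mean CPM per cell 3 lists were above 0, with and without mixed barcodes.

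Signs turned as follows. With at least 4 rule genes (9 Alk1 ECKO cells) medians were 0.0551 for proneural, 0.21 for Notch, -0.46 for vessel ligand, -0.0565 for G2/M, 0.0105 for synapse, 0.27 for adhesion, 0.0017 for transcription factor, 0.33 for SoxC and -0.0798 for immediate early genes, and log2 ratios were -0.29 for Cdh5, 0.26 for Neurod4 and -1.05 for Selenom; this setting keeps a mixed control barcode of 64131 UMIs. Without it the log2 ratios were 0.0876 for Neurod4, 1.10 for Selenom and -0.42 for Fabp7, and medians were 0.19 for adhesion, 0.21 for SoxC, 0.34 for BMP, -0.0838 for Notch and -0.34 for Wnt genes. After thinning they were -0.35 for G2/M, 0.12 for cytoskeletal and -0.61 for immediate early genes, and 0.57 for Fabp7. By mean CPM per cell they were -0.04999 for G2/M genes and 0.40 for Fabp7. Without G2/M cells they were 0.0862 for proneural, -0.29 for vessel ligand, -0.07945 for G2/M and 0.0472 for Wnt genes and 0.39 for Fabp7. From 100 UMIs the vessel ligand median was -1.03. Without mixed barcodes they were 0.18 for proneural, 0.0431 for Notch, -0.14 for vessel ligand, -0.16 for G2/M, 0.0826 for Wnt and -0.17 for immediate early genes and 0.43 for Fabp7, and by mean CPM per cell -0.48 for vessel ligands and 0.45 for Fabp7. The causes were not tested. UMIs of the mixed barcodes dominate the Alk1 ECKO sums. Leaving out G2/M cells also left out the mixed barcode of 240101 UMIs, which held 24 G2/M genes, and 199267 Alk1 ECKO UMIs remained. With the rule applied after thinning 117660 remained, so that barcode was left out there too. These 2 settings therefore do not show the part of cycling cells or of thinning alone. The hypoxia and glycolysis median stayed between 0.37 and 1.17 under the settings run without mixed barcodes. Depth limits all Alk1 ECKO levels, at 186063 UMIs in 48 cells.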
